A study of Mus musculus with 48 samples.

Results

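The 6 genes of hepatic glucose and fructose use described here are Slc2a2, Gckr, Pfkl, Pfkfb1, Pklr and Khk. They were chosen as the genes whose symbol, as printed in the scanner files, is in a list for glucose uptake and glycolysis, so the rule itself uses no measured value. The 6 genes are among 20486 genes measured and have 10 of the 56605 probes on the array. Of these 10 probes, 9 passed the filter on dim signals, and each of the 9 was well above background on 48 of 48 arrays. The remaining probe, another one for Pfkl, was well above background on 0 arrays and was left out.

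The liver takes up glucose through a low-affinity transporter in the hepatocyte membrane, phosphorylates it, and passes it through glycolysis to pyruvate, which feeds fat synthesis in the fed state. Fructose enters the same route below its main control point, after phosphorylation by ketohexokinase. Insulin and the sugars themselves are known to raise several of these genes in the fed liver, and glucagon lowers them in fasting.

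Insulin activates PI3Kα, of which p110α is the catalytic subunit. The study removed p110α from hepatocytes and measured which liver transcripts then differed, on a control diet and on a diet used to cause steatosis. Livers came from male mice only. LWT mice (p110αhep+/+) are albumin-Cre-/- littermates that carry floxed p110α, which stays intact without Cre. The genotypes thus differ in the Cre transgene as well. LKO mice (p110αhep-/-) are albumin-Cre+/- and p110αflox/flox, so the deletion depends on the albumin promoter, and the state of the gene in other liver cells was not tested. From 12 weeks of age, both genotypes received for 12 weeks either a HFD with 60% of its calories from fat or a CTRL diet. They were then killed at ZT16, that is 16 h after lights on, either fed or after a 24 h fast. Each of the 8 groups (LWT or LKO, CTRL or HFD, FED or FASTED) has 6 mice with 1 one-colour Agilent array each, 48 in all.

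All values are log2 normalized signals, and a difference is a log2 fold change. Between 52.3% and 59.3% of the spots of an array were well above background, no spot was saturated, and no pair of arrays held identical values. The 6 hepatocyte markers summed to medians of 1345457 to 1400234 signal units over the 8 groups, and each of the 6 passed the filter. The signal of Pik3ca, the gene of p110α, was called higher in LKO mice in CTRL fed, HFD fed and HFD fasted livers (log2 differences 0.39, 0.58 and 0.25). In CTRL fasted livers the difference was 0.08 and not called. Whether the Pik3ca probe lies in the deleted exons was not tested, so its signal does not check the deletion. For this mouse line the paper reports the deleted fragment in liver DNA by PCR and a lack of p110α protein by western blot. A pair of arrays lay nearest to the mean of another group over all genes: replicate 2 of LWT CTRL FED and replicate 3 of LKO HFD FED both lay nearest to LKO CTRL FED. For each kind of comparison, the total of calls over the 6 genes is also given without them. In whole liver, fewer cells of a type and less RNA per cell cannot be told apart.

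The 250 bases before the start sites of 2 members are shown because Pklr and Khk had the largest differences between groups and varied together. Both stretches are RefSeq sequence of build GRCm38.p6, plus strand, 5′ to 3′. Capitals mark a match to CACGTG in Khk, the E-box core that carbohydrate-response and SREBP-type factors can bind, and a match to CACGGG and CCCGTG with 5 bases between them in Pklr, a pair of imperfect E-boxes. The Pklr stretch, chr3:89136373-89136622, precedes the downstream of its 2 annotated starts, from which the liver form is made, and that of Khk is chr5:30921309-30921558.
Pklr: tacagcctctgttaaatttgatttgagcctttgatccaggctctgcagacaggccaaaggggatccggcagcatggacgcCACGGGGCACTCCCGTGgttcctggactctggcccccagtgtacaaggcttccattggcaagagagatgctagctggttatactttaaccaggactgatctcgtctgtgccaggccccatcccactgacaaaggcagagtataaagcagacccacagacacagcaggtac
Khk: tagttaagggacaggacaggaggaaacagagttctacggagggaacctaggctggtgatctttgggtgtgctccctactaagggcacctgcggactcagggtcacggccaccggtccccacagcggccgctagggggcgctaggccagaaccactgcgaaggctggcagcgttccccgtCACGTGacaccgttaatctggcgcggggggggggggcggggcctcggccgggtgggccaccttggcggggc
In Pklr the match lies 170 to 154 bases before the start, and in Khk it lies 71 to 66 bases before it. On either strand CACGTG occurs in 6.02% of the 32851 RefSeq windows of this length, and in 1 of the 10 windows of the 6 genes, that of Khk. A pair of CANNTG boxes with 5 bases between them occurs in 0.639% of windows and in 0 of the 10 windows of the 6 genes. Likewise GTAAACA, a forkhead-type motif (3.17% of windows), and GTTAAT and ATTAAC with 1 base between them, an HNF1-type motif (0.00913% of windows), occur in 0 of the 10. The pair CACGGG and CCCGTG was chosen after the Pklr sequence had been seen, so that its share (1 window, that of Pklr) carries no weight. These are letter matches within 250 bases and say nothing of binding.

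**Figure D1:**
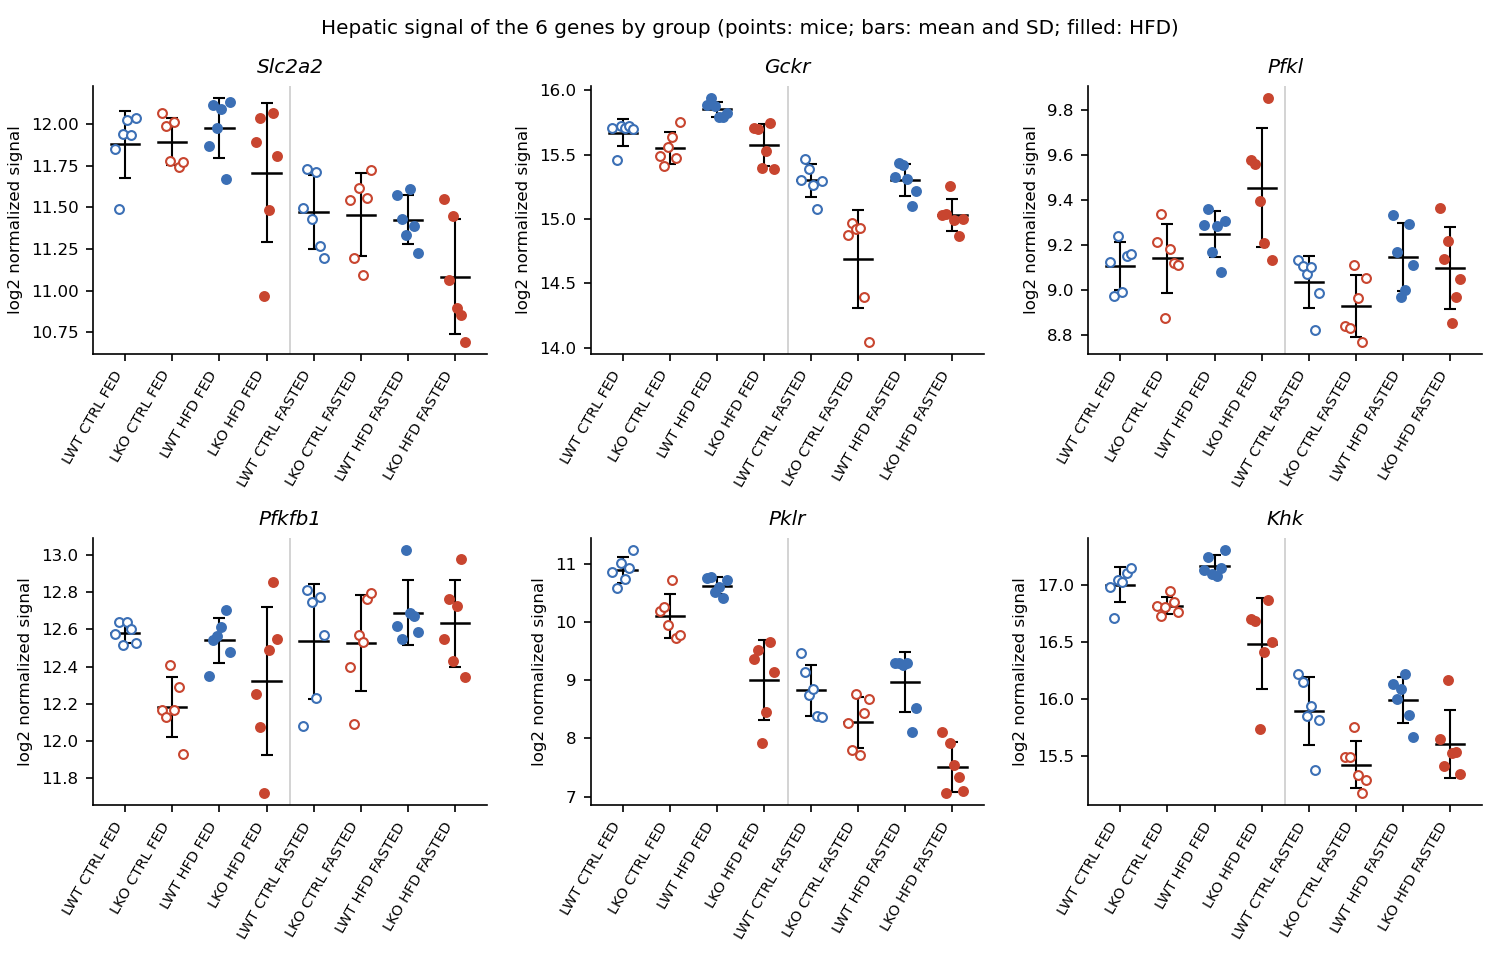
Log2 normalized signal (vertical axis) of the brightest probe of each gene in the 8 groups (horizontal axis), with 1 point per mouse, bars for the mean and SD of 6 mice, open symbols for CTRL and filled ones for HFD. Each fasted group has a lower mean than the fed group of the same genotype and diet for Pklr, Khk, Gckr and Slc2a2, and the lowest Pklr group is LKO HFD FASTED, with a median of 7.43.

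Fasting was the condition that moved these genes most. It lowered Pklr, Khk, Gckr and Slc2a2 in each of the 4 combinations of genotype and diet, Pfkl in 1 of them, and Pfkfb1 in none. Of 24 tests (6 genes in 4 combinations), limma called 17, all of them lower in fasted mice. In LWT mice on CTRL diet, 4 of the 6 genes fell, where 32.5% of all genes were called and 16.5% were called lower. In LWT mice on HFD 4 of 6 fell (28.4% of genes called, 14.7% lower), in LKO mice on CTRL diet 4 of 6 (35.4% called, 19.1% lower), and in LKO mice on HFD 5 of 6 (28.5% called, 14.6% lower). Without the pair of arrays named above the count was again 17. Among mice of the first washing batch alone (3 per group) 14 were called, and among those of the second 11.

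Genotype came next. Of 24 tests, 11 were called, all of them lower in LKO mice: Pklr in 3 conditions, Khk in 3, Gckr in 3, and Slc2a2 and Pfkfb1 in 1 each. In CTRL fed mice 2 of the 6 genes were lower in LKO (21.5% of all genes called, 10.6% lower) and in CTRL fasted mice 2 (24.8% called, 12.3% lower). On HFD the count was 3 in fed mice (32.9% called, 16.3% lower) and 4 in fasted mice (36.8% called, 17.7% lower). Without the pair of arrays 12 were called, and not all in the same direction: Pfkl was then called higher in LKO mice in HFD fed livers (0.24, adjusted p = 0.0463), Pklr was called lower in CTRL fasted livers (adjusted p = 0.0475), and the call of Gckr in HFD fed livers was lost (adjusted p = 0.0724). Leaving out replicate 3 of LKO HFD FED alone gave the same 3 changes. Within the first and the second washing batch 8 and 4 were called.

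HFD gave 3 calls in 24 tests, near the share of all genes called in the same comparisons (10.8% to 24.1%). In LWT mice 0 were called by limma in the fed state (24.1% of all genes called) and 0 in the fasted state (15.9% called). At an unadjusted p under 0.05 the counts were 0 and 0 as well. A fit to the arrays of the 2 groups alone called 2 in fed LWT mice, Gckr (0.15) and Pklr (-0.31), and each of the other 18 settings called 0 in both states. In LKO mice 2 of 6 were called in the fed state (12.2% of genes called) and 1 in the fasted state (10.8% called). The total over 24 tests was 3, the same without the pair of arrays, and 1 and 0 within the washing batches.

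**Figure D2:**
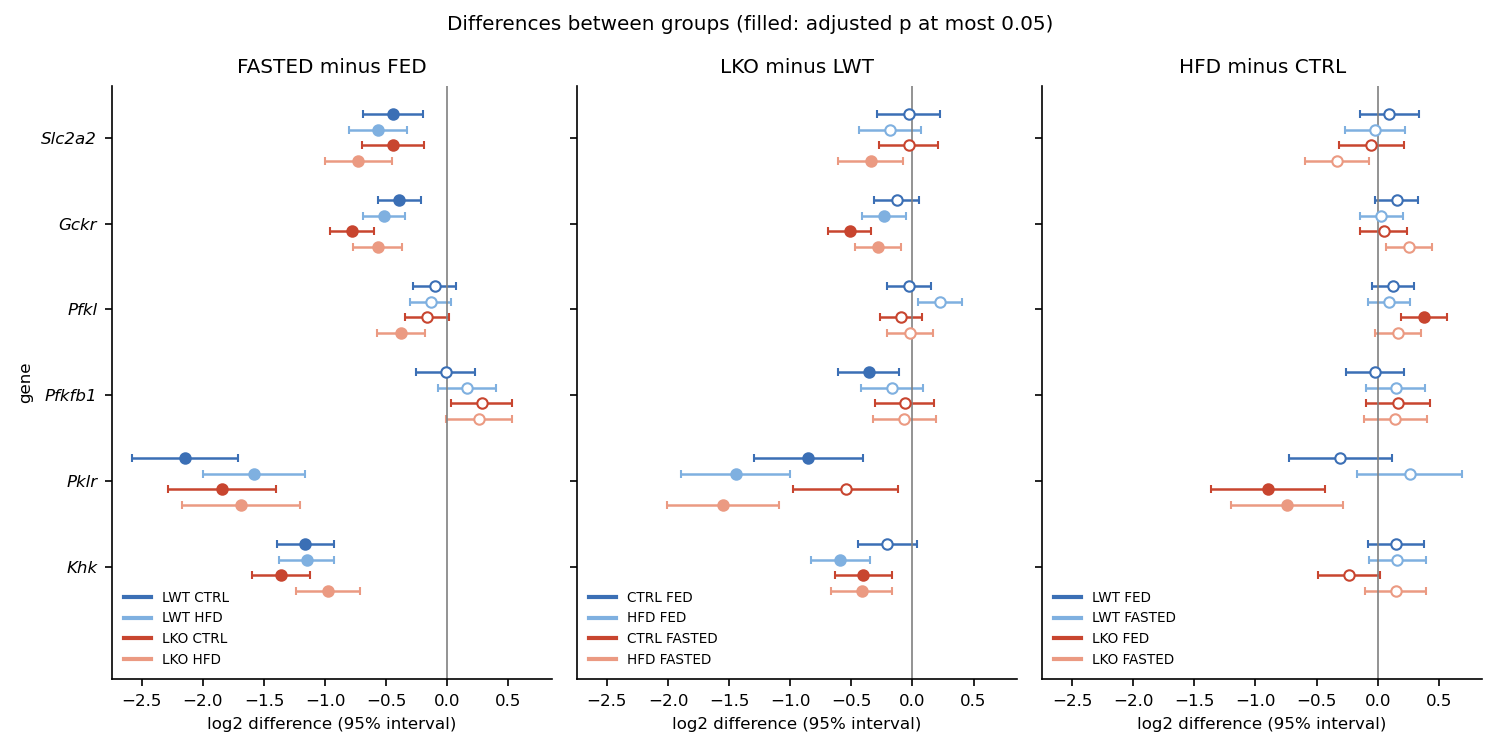
Log2 differences (horizontal axis) with 95% intervals for the 6 genes (vertical axis) between fasted and fed, LKO and LWT, and HFD and CTRL mice, in the 4 conditions of each (colours), with filled symbols for an adjusted p of at most 0.05. The fasting differences of Pklr, from -2.15 to -1.58, are the longest, and Pfkfb1 has a filled symbol in 1 comparison only, LKO against LWT in CTRL fed mice.

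Slc2a2 encodes GLUT2, the main glucose transporter of the hepatocyte membrane. The coordinates given for its probe are 3:28625253-28625961 (mm9). In fed LWT mice the lowest, median and highest signals were 11.49, 11.94 and 12.04 on CTRL diet and 11.67, 12.03 and 12.13 on HFD. In fed LKO mice they were 11.75, 11.88 and 12.06 on CTRL diet and 10.97, 11.85 and 12.06 on HFD. The 4 fed groups overlapped each other, and the lowest fed mouse was replicate 3 of LKO HFD.

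Fasted LWT mice ranged over 11.19, 11.46 and 11.73 on CTRL diet and 11.23, 11.41 and 11.61 on HFD. Fasted LKO mice gave 11.10, 11.55 and 11.72 on CTRL diet and 10.69, 10.98 and 11.55 on HFD. Fed and fasted mice did not overlap in LWT HFD and LKO CTRL. They did overlap in LWT CTRL and LKO HFD, in each of which 1 of the pair of arrays named above was the lowest fed mouse. In LWT CTRL the overlap rested on that array alone. In LKO HFD fed replicate 4 (11.48) also lay below fasted replicate 1 (11.55). With fasting Slc2a2 fell in LWT mice, with log2 differences of -0.45 (SE 0.12, adjusted p = 0.0044) on CTRL diet and -0.57 (SE 0.12, adjusted p = 0.000275) on HFD. In LKO mice it fell as well, with -0.45 (SE 0.13, adjusted p = 0.00449) on CTRL diet and -0.73 (SE 0.14, adjusted p = 7.56e-05) on HFD. On CTRL diet the LKO call was lost within either washing batch, at -0.35 (adjusted p = 0.0669) and -0.54 (adjusted p = 0.0785), and in 3 of 19 alternatives in all. The other 3 fasting calls of Slc2a2 were lost in 1 to 2 of 19.

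Between genotypes Slc2a2 was lower in LKO mice in the HFD fasted state alone, with a log2 difference of -0.34 (95% interval -0.61 to -0.08, adjusted p = 0.0365). That call was lost in 6 of 19 alternative settings, among them the one with replicate numbers as a block. In CTRL fed and CTRL fasted mice the genotype differences were -0.03 (95% interval -0.29 to 0.22) and -0.03 (95% interval -0.28 to 0.21), both within the spread. HFD gave -0.33 (95% interval -0.60 to -0.07, adjusted p = 0.0974) in fasted LKO mice, which missed the threshold and was called in 2 of 19 alternatives (-0.42 and -0.41).

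Gckr encodes an inhibitory protein of hepatic glucose phosphorylation, whose action phosphorylated fructose regulates. The probe lies on chromosome 5 (5:31629583-31629642, mm9). Signals of fed LWT mice were 15.46, 15.71 and 15.73 (lowest, median and highest) on CTRL diet and 15.79, 15.85 and 15.94 on HFD. Those of fed LKO mice were 15.41, 15.52 and 15.76 on CTRL diet and 15.39, 15.61 and 15.75 on HFD. On HFD each fed LWT mouse lay above each fed LKO mouse, while on CTRL diet the genotypes overlapped.

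After the fast, LWT mice had 15.08, 15.30 and 15.47 on CTRL diet and 15.10, 15.32 and 15.44 on HFD. LKO mice had 14.05, 14.90 and 14.97 on CTRL diet and 14.87, 15.02 and 15.26 on HFD. In fasted mice on CTRL diet the genotypes did not overlap, and 2 LKO mice lay well below the other 4. The log2 difference with fasting was -0.39 (SE 0.09, adjusted p = 0.000494) in LWT and -0.78 (SE 0.09, adjusted p = 2.54e-09) in LKO mice on CTRL diet. On HFD it was -0.52 (SE 0.08, adjusted p = 6.73e-06) in LWT and -0.57 (SE 0.10, adjusted p = 2.02e-05) in LKO mice. The LKO call on CTRL diet held in all 19 alternatives, and the other 3 were lost in 1 to 2.

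Gckr was lower in LKO than in LWT mice in the CTRL fasted state, with a log2 difference of -0.52 (SE 0.09, adjusted p = 1.64e-05). On HFD it was lower in both states, with -0.28 (SE 0.09, adjusted p = 0.0149) in fasted and -0.23 (SE 0.09, adjusted p = 0.0436) in fed mice. The last of these is the least firm call of the 6 genes, lost in 9 of 19 alternatives. Among them were the fit without replicate 3 of LKO HFD FED (adjusted p = 0.073) and the authors' own log2 values. Median scaling and the processed signal at the 75th percentile lost the call as well. Over the 19 alternatives this difference ran from -0.34 to -0.06, with limma adjusted p up to 0.709. The HFD fasted call was lost in 5 of 19. In CTRL fed mice the genotype difference was -0.13 (95% interval -0.31 to 0.05, adjusted p = 0.339). HFD moved Gckr by 0.26 (95% interval 0.07 to 0.45, adjusted p = 0.0683) in fasted LKO mice, which was not called, although 3 of 19 alternatives called it.

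Pfkl encodes the liver subunit of phosphofructokinase, the committed step of glycolysis. Its brighter probe lies at 10:77450926-77450985 (mm9). Over the 8 groups the group means ran from 8.93 (LKO CTRL FASTED) to 9.46 (LKO HFD FED), and neighbouring groups in the order of the means differed by less than the larger of their SDs. In LKO HFD mice the fed signals were 9.14, 9.48 and 9.85 and the fasted ones 8.86, 9.09 and 9.36, and in fed LKO mice on CTRL diet they were 8.88, 9.15 and 9.34. The fed LKO mice on HFD were thus the highest on the whole, although they overlapped both other groups.

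Fasting lowered Pfkl in LKO mice on HFD, with a log2 difference of -0.38 (SE 0.10, adjusted p = 0.00267), and HFD raised it in fed LKO mice by 0.38 (SE 0.09, adjusted p = 0.00446). Both comparisons use the fed LKO HFD mice. The values differed between the washing batches. In the first they were -0.63 and 0.62, against -0.10 (adjusted p = 0.687) and 0.12 (adjusted p = 0.778) in the second, where both calls were lost. The fasting call was lost in 2 of 19 alternatives and the HFD call in 3, among them the fit to the arrays of the compared groups alone. The genotype difference in fed mice on HFD was 0.22 (95% interval 0.04 to 0.40, adjusted p = 0.0517) and missed the threshold, but was called in 8 of 19 alternatives.

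A second Pfkl probe (10:77470357-77470416, mm9) gave another picture. Its r with the first probe over the 48 arrays was 0.46, against 0.98 for the pair of Khk probes and 0.86 for the pair of Pfkfb1 probes. By the second probe Pfkl was higher in LKO mice in CTRL fed (0.31 on the log2 scale, limma adjusted p = 0.0339), HFD fed (0.35, adjusted p = 0.00975) and HFD fasted livers (0.36, adjusted p = 0.00971). It also called a rise with HFD in fasted LKO mice (0.40, adjusted p = 0.0138) and no fall with fasting in LKO mice on HFD (-0.08, adjusted p = 0.681). By this probe the rise with HFD in fed LKO mice was not called (0.27, limma adjusted p = 0.114). Statements on Pfkl therefore hold for 1 probe at a time.

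Pfkfb1 encodes the liver isoform of the bifunctional enzyme that makes and breaks down fructose 2,6-bisphosphate, the activator of phosphofructokinase. Its brighter probe lies at X:147078320-147078379 (mm9). Signals of CTRL fed mice were 12.51, 12.59 and 12.64 in LWT and 11.93, 12.17 and 12.41 in LKO mice. These groups did not overlap, and Pfkfb1 was lower in LKO mice, with a log2 difference of -0.36 (SE 0.12, adjusted p = 0.0348). The second probe (X:147056628-147056687, mm9) gave a log2 difference of -0.31 (limma adjusted p = 0.0318). The call was lost in 4 of 19 alternatives, among them either washing batch alone, where the values were -0.35 and -0.34.

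In the other 3 conditions the genotype difference of Pfkfb1 was -0.17 (95% interval -0.42 to 0.08, adjusted p = 0.321) (HFD fed), -0.06 (CTRL fasted) and -0.07 (HFD fasted). Fasting values of Pfkfb1 were not called, with log2 differences from -0.01 in LWT mice on CTRL diet to 0.28 (95% interval 0.03 to 0.53, adjusted p = 0.0742) in LKO mice on CTRL diet. The last of these was called as a rise in 5 of 19 alternatives (0.31 to 0.38), the replicate block among them. The span of its group means was 0.51, and neighbours in the order of levels did not differ beyond their SD.

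Pklr encodes the liver pyruvate kinase, which makes pyruvate in the last step of glycolysis. The coordinates given for its probe are 3:88948907-88949425 (mm9). In fed LWT mice the lowest, median and highest Pklr signals were 10.59, 10.90 and 11.24 on CTRL diet and 10.41, 10.66 and 10.77 on HFD. In fed LKO mice they were 9.73, 10.07 and 10.73 on CTRL diet and 7.91, 9.26 and 9.66 on HFD. Fed LWT mice on either diet were high, fed LKO mice on CTRL diet were lower with an overlap of 1 LKO mouse into the LWT range, and fed LKO mice on HFD lay below all other fed mice.

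Fasted LWT mice had 8.36, 8.80 and 9.48 on CTRL diet and 8.11, 9.27 and 9.30 on HFD. Fasted LKO mice had 7.72, 8.35 and 8.77 on CTRL diet and 7.06, 7.43 and 8.11 on HFD, the lowest of the 8 groups. Each fasted group lay below its fed counterpart without overlap, except in LKO HFD mice, where the lowest fed mouse, replicate 3, reached the fasted range. The order of the group means was LWT CTRL FED, LWT HFD FED, LKO CTRL FED, LKO HFD FED, LWT HFD FASTED, LWT CTRL FASTED, LKO CTRL FASTED and LKO HFD FASTED, and the span from first to last was 3.39. Fed LKO mice on HFD did not differ from either fasted LWT group beyond their SD.

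With fasting Pklr fell in LWT mice on CTRL diet with a log2 difference of -2.15 (SE 0.21, adjusted p = 1.66e-10), that is 4.43-fold lower. The difference was -1.58 (SE 0.21, adjusted p = 1.15e-07) in LWT mice on HFD. In LKO mice it was -1.84 (SE 0.22, adjusted p = 6.03e-09) on CTRL diet and -1.69 (SE 0.24, adjusted p = 8.66e-07) on HFD. In each of these 4 comparisons, at most 0.41% of the 20486 genes had a larger difference in size. All 4 calls held in each of the 19 alternative settings.

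Pklr was lower in LKO mice in CTRL fed livers, with a log2 difference of -0.85 (SE 0.22, adjusted p = 0.00442). In CTRL fasted livers the difference of -0.55 (95% interval -0.97 to -0.12, adjusted p = 0.0566) just missed the threshold and was called in 4 of 19 alternatives. On HFD the log2 difference was -1.45 (SE 0.22, adjusted p = 1.95e-06) in the fed and -1.55 (SE 0.23, adjusted p = 9.23e-07) in the fasted state, which are 2.72-fold and 2.93-fold lower in LKO mice. Both HFD calls held in all 19 alternatives. Within the washing batches the fed difference on HFD was -1.47 and -1.43, and the fasted one -1.83 and -1.21. The CTRL fed call was lost within either batch, at -0.85 and -0.71.

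HFD lowered Pklr in LKO mice, with log2 differences of -0.90 (SE 0.23, adjusted p = 0.00712) when fed and -0.74 (SE 0.23, adjusted p = 0.0286) when fasted. In LWT mice the HFD differences were -0.30 (95% interval -0.73 to 0.12, adjusted p = 0.317) when fed and 0.26 (95% interval -0.17 to 0.69, adjusted p = 0.44) when fasted. The test of the difference between genotypes gave -1.005 (95% interval -1.63 to -0.38, adjusted p = 0.0519) in fasted mice and -0.59 (95% interval -1.22 to 0.04, adjusted p = 0.324) in fed mice, neither of them called. Without replicate 3 of LKO HFD FED the fasted interaction was -1.01 with an adjusted p of 0.0425. Without it the fall with HFD in fed LKO mice was -0.79 with an adjusted p of 0.0142. Both HFD calls were lost within either washing batch, at -0.73 (adjusted p = 0.0788) and -1.19 (adjusted p = 0.166) when fed and -0.89 (adjusted p = 0.122) and -0.44 (adjusted p = 0.539) when fasted. The fasted call was also lost in the fit to the arrays of the compared groups alone.

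Khk encodes ketohexokinase, which phosphorylates fructose in the first step of its breakdown. Its brighter probe lies at 5:31233555-31233614 (mm9). Fed LWT mice had lowest, median and highest signals of 16.71, 17.04 and 17.15 on CTRL diet and 17.08, 17.15 and 17.31 on HFD. Fed LKO mice had 16.73, 16.81 and 16.95 on CTRL diet and 15.74, 16.59 and 16.87 on HFD. Each fed LWT mouse on HFD lay above each fed LKO mouse on HFD, whereas on CTRL diet the genotypes overlapped through the lowest LWT mouse, replicate 2.

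Signals of fasted LWT mice were 15.38, 15.90 and 16.22 on CTRL diet and 15.67, 16.04 and 16.22 on HFD. Those of fasted LKO mice were 15.18, 15.42 and 15.76 on CTRL diet and 15.35, 15.53 and 16.17 on HFD. Fasted mice lay below fed ones without overlap in 3 of the 4 combinations, and in LKO HFD mice they met at replicate 3 of the fed and replicate 3 of the fasted group. Fasting lowered Khk in LWT mice, with log2 differences of -1.16 (SE 0.12, adjusted p = 1.63e-10) on CTRL diet and -1.15 (SE 0.11, adjusted p = 9.8e-11) on HFD. In LKO mice the difference was -1.36 (SE 0.12, adjusted p = 2.22e-12) on CTRL diet and -0.98 (SE 0.13, adjusted p = 2.37e-07) on HFD. The last of these calls was lost in washing batch 2 alone (-0.64, adjusted p = 0.0618). The second Khk probe (5:31229105-31229164, mm9) also fell in all 4 combinations, with log2 differences of -1.18 to -0.90.

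Between genotypes Khk was lower in LKO mice on HFD, with log2 differences of -0.59 (SE 0.12, adjusted p = 0.000156) when fed and -0.42 (SE 0.12, adjusted p = 0.00718) when fasted. On CTRL diet it was lower when fasted, with -0.40 (SE 0.11, adjusted p = 0.00819), and the fed difference of -0.21 (95% interval -0.45 to 0.04, adjusted p = 0.234) was not called. The HFD fed call held in all 19 alternatives, with -0.40 and -0.76 within the washing batches. The CTRL fasted and HFD fasted calls were lost in 4 and 3 of 19, median scaling among them. HFD gave -0.24 (95% interval -0.49 to 0.02, adjusted p = 0.249) in fed LKO mice.

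Beside these genotype differences, other cell type markers were called as well. Of all genes, 21.5% to 36.8% were called in the genotype comparisons, and 10.6% to 17.7% were called lower in LKO mice. In the fasting comparisons 28.4% to 35.4% of all genes were called, and in the HFD comparisons 10.8% to 24.1%. In lists this short, a count of 1 cannot be told from these shares. All 5 cholangiocyte markers passed the filter, and 3 of them were called lower in LKO mice in CTRL fed livers and 4 in each of the other 3 conditions. Their summed signal ran from 1451 to 5397 over the LWT mice and from 559 to 1132 over the LKO mice. Of the 4 adipocyte markers, 3 passed the filter, with Adipoq not among them, and their summed signal ran from 594 to 37217 in LWT and from 203 to 2160 in LKO mice. Of these 3, Cfd alone was called lower in LKO mice, in all 4 conditions (log2 differences -5.56 to -4.11), Lep was called higher in HFD fed livers (0.55), and Plin1 was not called. In fasted LKO mice on HFD 4 of 5 sinusoidal endothelial markers were called higher, against 1 to 2 called, in either direction, in the other 3 conditions. Between 0 and 2 of the 6 Kupffer cell, 5 stellate cell, 3 T and B cell and 3 erythroid markers that passed the filter were called in any genotype comparison, and the 1 pancreas marker that passed was lower in LKO mice in 3 of 4. With fasting, 1 to 3 of the 5 cholangiocyte markers were called lower, 3 of 3 erythroid markers were lower in LKO and 1 in LWT mice on CTRL diet, and the pancreas marker was lower in LKO mice on CTRL diet (-0.66) and HFD (-0.75). Of the 5 sinusoidal endothelial markers 2 were lower with fasting in LWT mice on HFD and 1 was higher in LKO mice on either diet, and 1 of the 5 stellate cell markers was lower in 3 of 4 combinations. In LWT mice on HFD 1 Kupffer cell marker was lower and 1 T and B cell marker higher, and 1 adipocyte marker was higher in LKO mice on CTRL diet and 1 lower in LKO mice on HFD. With HFD, 1 of the 3 adipocyte markers was called higher in each comparison but that of fed LKO mice, where 2 were. Of the 5 stellate cell markers 2 were higher in fed LWT mice, and 1 in fasted LWT and in fed LKO mice. Of the 3 erythroid markers 2 were higher in fasted LKO mice, and the pancreas marker was lower in LWT mice in both states. Among the 5 sinusoidal endothelial markers 1 to 2 were called in either direction, and 0 to 1 of the cholangiocyte, Kupffer cell and T and B cell markers. The part of these cells in the results was not tested. The summed hepatocyte markers, which rest on a few of the brightest probes, lay between 1316408 and 1424264 in every mouse. However, 1 to 3 of the 6 were called in each genotype comparison, 2 to 3 in each fasting comparison and 0 to 2 in each HFD comparison. Cps1, an enzyme of the urea cycle, was higher in LKO mice in all 4 conditions (log2 differences 0.53 to 1.36).

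No difference of differences was called. Over the 6 genes limma called 0 of 36 interactions, and 5 had an unadjusted p under 0.05. The other settings called 0 to 2, and without the pair of arrays 1 was called, that of Pklr between genotype and diet in fasted mice. The share of all genes called was 2.83% for genotype by diet in fed and 4.96% in fasted mice, 3.92% and 3.37% for genotype by nutritional state on CTRL diet and HFD, and 2.36% and 7.9% for diet by nutritional state in LWT and LKO mice. The 5 were Pklr (above), -0.39 (adjusted p = 0.0724) for Gckr (genotype by state on CTRL diet), -0.39 (adjusted p = 0.219) for Khk (genotype by diet, fed), 0.38 (adjusted p = 0.198) for Khk (diet by state in LKO mice) and 0.26 (adjusted p = 0.287) for Pfkl (genotype by diet, fed). A call in one genotype or diet and none in the other is therefore not shown to be a difference between them for these genes.

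**Figure D3:**
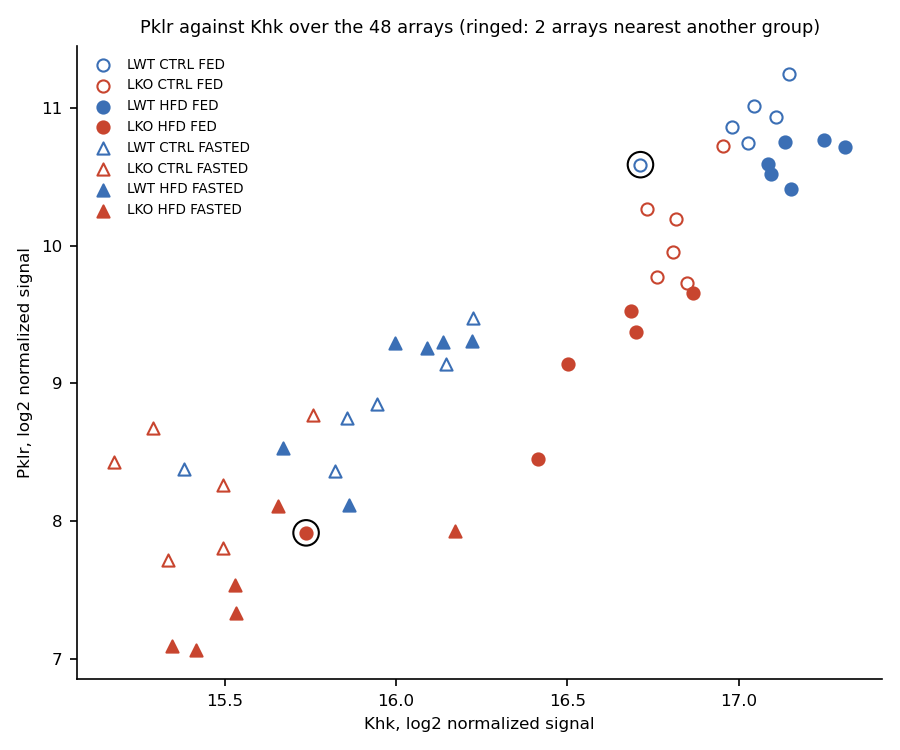
Pklr against Khk (log2 normalized signals) in the 48 livers, with circles for fed, triangles for fasted, blue for LWT, red for LKO, filled for HFD, and rings around the pair of arrays nearest to another group. Fed LWT mice are at the upper right and fasted LKO mice at the lower left, and r over all arrays is 0.91.

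Across the 48 arrays Pklr and Khk followed each other, with r = 0.91, and r = 0.74 once each group's mean had been removed. Slc2a2 and Pklr had r = 0.86 and 0.81 within groups, and Gckr and Khk 0.89 and 0.57. Without the pair of arrays named above the within-group values were 0.67, 0.76 and 0.55. Pfkfb1 had r between -0.24 and -0.10 to the other 5 genes over the 48 arrays. Over the 24 fed arrays its r was 0.59 with Khk, 0.48 with Pklr, 0.37 with Gckr, 0.37 with Slc2a2 and -0.11 with Pfkl. Both arrays of the pair are fed, and these fed values are not given without them. With group means removed, its r was 0.07 with Khk, 0.15 with Pklr, -0.24 with Gckr, 0.18 with Slc2a2 and -0.155 with Pfkl. Without the pair these within-group values were -0.16, -0.01, -0.34, 0.003 and -0.19. These arrays share groups, batches and normalization, and the correlations are descriptions.

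Among 20458 other genes ranked by r over the 48 arrays, Hcn3 was nearest to Pklr (0.99), followed by AA879870 and Thrsp (both 0.93). Hcn3 is the next gene to Pklr on chromosome 3 in GRCm38.p6, and its probe (3:88950072-88950131, mm9) begins 646 bases beyond that of Pklr. Nearest to Khk were Pygl, the liver glycogen phosphorylase (0.98), AA879870 (0.95) and Fasn, the fatty acid synthase (0.93). Nearest to Gckr were Nqo2 and Tmem14c (both 0.92) and Fkbp2 (0.91). The nearest gene to Slc2a2 was Pklr itself. Pfkfb1 and Pfkl had no gene nearer than 1810055G02Rik (0.69) and the transcript ENSMUST00000118061 (0.76).

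The other genes of these routes were taken from a list of 38 transporters and enzymes, of which 36 passed the filter. With fasting 18 of the 36 were called in LWT mice on CTRL diet and 15 were lower (41.7%, against 16.5% of all genes). In LWT mice on HFD 15 were called and 12 were lower (33.3% against 14.7%). In LKO mice 18 were called and 13 lower on CTRL diet (36.1% against 19.1%), and 19 called and 13 lower on HFD (36.1% against 14.6%). The median log2 difference of the 36 ran from -0.18 to -0.09 over the 4 combinations, against -0.0011 to 0.0042 for all genes. Tkfc, the triokinase of fructose breakdown, fell (log2 differences -2.30 to -1.45) over the 4 combinations. Gpi1, the isomerase of glucose 6-phosphate, fell (log2 differences -1.10 to -0.47), and so did Eno1, an enolase (log2 differences -0.78 to -0.40). Slc2a4, the insulin-responsive transporter GLUT4, fell in 3 of 4 combinations (log2 differences -3.50 to -2.88). Slc2a1, the transporter GLUT1, rose in all 4 (log2 differences 0.46 to 0.92).

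By genotype the share of the 36 that was called was near or below that of all genes. It was 16.7% in CTRL fed livers (6 genes, against 21.5% of all genes) and 19.4% in CTRL fasted livers (7 genes, against 24.8%). On HFD it was 33.3% in fed (12 genes, against 32.9%) and 36.1% in fasted livers (13 genes, against 36.8%). Those lower in LKO mice were 6 in CTRL fed (16.7%, against 10.6% of all genes), 2 in CTRL fasted (5.56% against 12.3%), 11 in HFD fed (30.6% against 16.3%) and 10 in HFD fasted livers (27.8% against 17.7%). Hk2, a hexokinase, was lower in LKO mice on HFD (log2 differences -0.96 to -0.59), and Hkdc1, a related protein, was lower in 3 of 4 conditions (log2 differences -0.60 to -0.33). Pgam1, a phosphoglycerate mutase, was lower in all 4 (log2 differences -0.35 to -0.21). Pfkfb4 was lower on HFD (log2 differences -0.62 to -0.49), and Gpi1 in the fed state on either diet (log2 differences -0.78 to -0.28).

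With HFD 15 of the 36 were called in fed LWT mice (41.7%, against 24.1% of all genes) and 10 in fasted LWT mice (27.8% against 15.9%). Of these, 10 were higher when fed (27.8%, against 12.4% of all genes) and 9 when fasted (25.0% against 8.96%). In LKO mice 9 were called when fed (25.0% against 12.2%) and 6 when fasted (16.7% against 10.8%), with 3 higher in each state (8.33%, against 5.82% and 5.65% of all genes). Pkm, the other pyruvate kinase gene, rose with HFD in all 4 combinations (log2 differences 0.56 to 0.87). Hk2 rose in LWT mice (log2 differences 0.77 to 0.79), Bpgm in fasted mice of either genotype (log2 differences 0.37 to 0.46) and Pfkp in LWT mice (log2 differences 0.34 to 0.39). Slc2a5, the fructose transporter GLUT5, fell in 3 of 4 combinations (log2 differences -0.91 to -0.61).

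**Figure D4:**
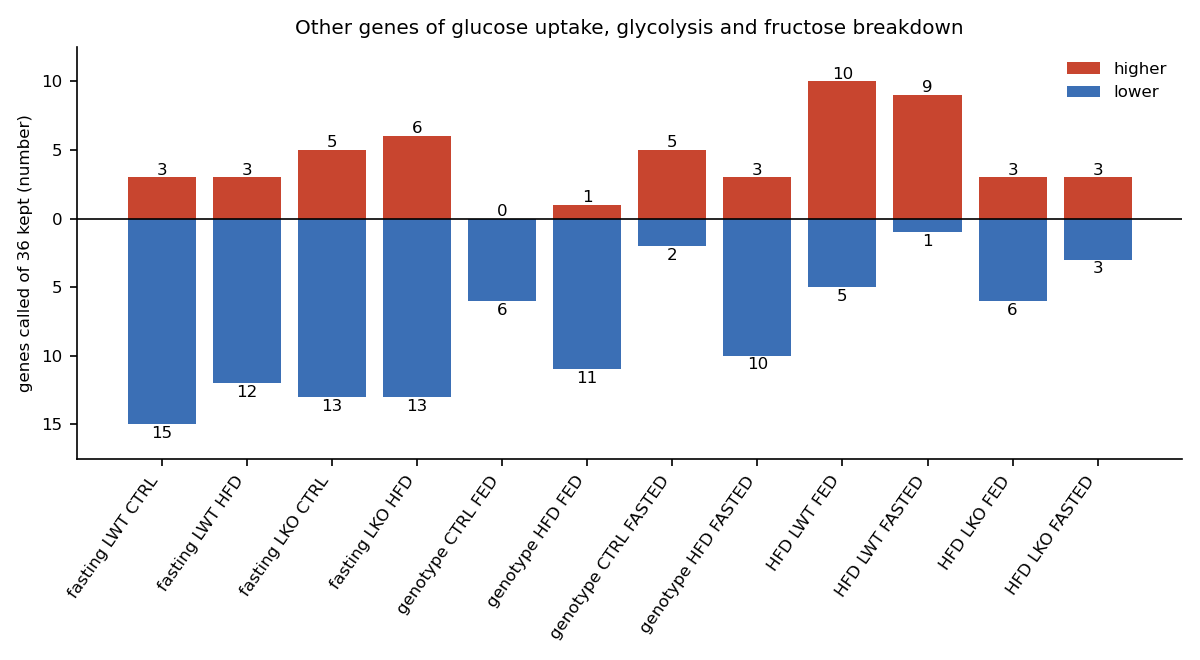
Number of the 36 other genes of glucose uptake, glycolysis and fructose breakdown called by limma (vertical axis) as higher (red, upward) or lower (blue, downward) in each of 12 comparisons (horizontal axis). Between 12 and 15 genes were lower in the fasting comparisons, and 11 and 10 were lower in LKO mice on HFD.

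A list of 15 regulators known to act on such genes passed the filter in full. With fasting 11 of the 15 were called in LWT (6 higher, 5 lower) and 9 in LKO mice on CTRL diet (5 higher), and 7 (5 higher) and 9 (6 higher) on HFD. That is 46.7% to 73.3% of the list, against 28.4% to 35.4% of all genes. With HFD 5 were called in fed LWT mice, all lower (33.3%, against 24.1% of all genes called in either direction). Of all 20486 genes, 2388 were called lower there. In fasted LWT, fed LKO and fasted LKO mice 1, 1 and 2 were called. These were 6.67%, 6.67% and 13.3% of the list, against 15.9%, 12.2% and 10.8% of all genes. By genotype 2 were called in CTRL fed, 4 in CTRL fasted, 2 in HFD fed and 8 in HFD fasted livers (7 of them higher in LKO mice), that is 13.3%, 26.7%, 13.3% and 53.3%, against 21.5%, 24.8%, 32.9% and 36.8% of all genes. Srebf1, the gene of an insulin-responsive activator of lipogenic and glycolytic genes, fell with fasting (log2 differences -2.83 to -1.66) in the 4 combinations. Mlx, the partner of the carbohydrate-response factor, fell (log2 differences -0.62 to -0.28), while its relative Mlxip rose (log2 differences 0.33 to 0.59). Foxo1, a factor that insulin signalling keeps out of the nucleus, rose (log2 differences 0.67 to 0.99). Txnip, a glucose-responsive gene, rose in 3 of 4 combinations (log2 differences 0.96 to 2.14) and fell with HFD in fasted mice (log2 differences -1.11 to -0.85). Between genotypes Txnip was higher in fasted LKO mice (log2 differences 0.80 to 1.06), Mlxip in fasted LKO mice (log2 differences 0.25 to 0.30) and Nr1h2 in all 4 conditions (log2 differences 0.14 to 0.27).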

How the data were processed

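Livers of 48 mice were hybridized to one-colour Agilent arrays, and groups, replicate numbers and washing batches were taken from the labels. The authors labelled 200 ng of total RNA, read the arrays with Agilent Feature Extraction 10.10.1.1 (per the submitters' processing notes) and deposited the median intensity of each spot with its background and flags, not normalized. They also deposited log2 values, made after a filter, a correction for the bath in which arrays were washed, and quantile normalization, which served as an alternative. In it, 0 columns lacked a sample. Over the 30762 probes in both, r with the values used here was at least 0.999997 on every array.

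Log2 median signals were taken from the scanner output without the 92 to 151 outlier spots per array, and repeated spots were averaged by probe. Probes well above background on 5 or more of the 6 arrays of any group were retained, 30793 probes for 20486 genes. The washing batch was removed with the group means protected, arrays were quantile normalized, and limma 3.58.1 (R 4.3.3, statmod 1.5.0) was fitted to all 48 arrays with array weights. Fitted differences are weighted and so depart from differences of the plain means. The fall of Pklr with HFD in fed LKO mice was fitted at -0.90, where the plain means lay 1.10 apart. In CTRL fed mice the genotype values of Pfkl and Slc2a2, which were not called, changed sign without array weights. Adjusted p refers to the Benjamini-Hochberg procedure across the retained probes. Genes were called at an adjusted p of at most 0.05, the threshold of the methods, on their brightest probe, a choice made here. The p-values rest on the spread between mice within groups, pooled over the 8 groups and moderated by limma across probes. They do not measure the spread of the compared groups alone. For Pklr the SD was 0.14 in LWT HFD FED and 0.69 in LKO HFD FED. The model was tested on simulated data. Tables and figures were made with Python 3.11.15 and pandas 2.3.3.

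The genes named are the 6 members with each probe of theirs and, from a list of 38 pathway genes and one of 15 regulators, up to 5 genes per kind of comparison with the largest mean log2 difference among those called the same way in at least 2 of 4 contrasts. For each of the 6 genes, those with the highest Pearson r over the arrays are also named. Marker lists for 9 cell types were summed as linear signals. The members, lists and alternatives were chosen with earlier results of these data known. The pathway genes Slc2a10 and Eno2 did not pass the filter. Probe positions are those of the scanner output (mm9), no annotation of that build was used, and exon or untranslated positions of the probes are not given here. Replicate numbers were not taken as pairs: the mean r of the deviations of same-numbered mice was 0.02, and 40 of 168 pairs were above 0.1.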

Additional observations from a re-analysis of the deposited data

Results flagged for a closer look

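Of 48 sets of 6 mice (6 genes in 8 groups), 4 held a mouse set apart from the other 5 by more than the 95% critical value of Dixon for the gap over the range, where chance alone marks about 1 in 20 groups. In LWT CTRL FED, replicate 2 was low for Gckr, at 15.46 against 15.70 for the next mouse, and for Slc2a2, at 11.49 against 11.85. It is 1 of the pair of arrays that lay nearest to another group. Replicate 3 of LWT HFD FASTED was high for Pfkfb1, at 13.03 against 12.69. Replicate 3 of LKO HFD FASTED was high for Khk, at 16.17 against 15.65.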

How the results depend on the processing

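The 31 called differences of the 6 genes kept their direction under 19 alternatives, with 531 calls kept and 58 lost, most often within 1 washing batch or with a fold of 1.5 required in addition. With that fold, 10 fasting and 4 genotype differences were called, against 17 and 11. Within washing batch 1 alone, 1 HFD difference was called, against 3. Within washing batch 2 alone, 11 fasting, 0 HFD and 4 genotype differences were called. Each batch alone holds fewer arrays. Against 0 interactions called by limma, there were 2 with the slide as a block, 1 with probes above background on all arrays, and 1 with the median of the probes of a gene. Leaving out arrays gave 0 (without LWT CTRL FED replicate 2) to 1 (without LKO HFD FED replicate 3), and 1 without both. Leaving out LWT CTRL FED replicate 2, or both, was chosen after the data were seen. The causes were not tested. Array number may limit the precision, and dim probes near background may be less precise, but neither was compared. The retained probes of the 6 genes were well above background on every array.

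With the replicate number as a block, 18 fasting, 4 HFD, 10 genotype and 0 interaction values were called. Pfkfb1 with fasting in LKO CTRL mice (a rise of 0.31, adjusted p = 0.0352) and Gckr with HFD in fasted LKO mice (0.27, adjusted p = 0.0362) were gained, and Slc2a2 in fasted HFD mice lost its genotype call there, at -0.32 (adjusted p = 0.0559).

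Values that were not called changed sign 79 times, 45 of them among interactions with an unadjusted p of 0.05 or more, which are not listed. The other 34 were as follows, as log2 differences. With the processed signal at the 75th percentile, the fasting value of Pfkfb1 was 0.025 (LWT CTRL), and HFD values were -0.12 (LWT FASTED) and -0.033 (LKO FED) for Gckr and -0.058 (LKO FASTED) for Khk. With median scaling, Pfkfb1 fasting was 0.027 (LWT CTRL), and HFD values were -0.071 (LWT FED) and -0.23 (LWT FASTED) for Gckr and -0.13 (LWT FED), -0.12 (LWT FASTED) and -0.081 (LKO FASTED) for Khk. In washing batch 1, Pfkl fasting was 0.038 (LWT CTRL), HFD values were -0.040 (Khk, LWT FASTED) and 0.028 (Slc2a2, LKO FED), and Pfkfb1 genotype values were 0.016 (CTRL FASTED), 0.10 (HFD FED) and 0.23 (HFD FASTED). In washing batch 2, Pfkfb1 fasting was 0.17 (LWT CTRL). HFD values there were 0.048 (LWT FED) and -0.12 (LKO FASTED) for Pfkfb1, -0.011 (LWT FED) and 0.14 (LWT FASTED) for Slc2a2 and -0.029 (LKO FED) for Gckr. Genotype values there were 0.027 (CTRL FED), 0.050 (CTRL FASTED) and 0.18 (HFD FASTED) for Pfkl and 0.056 (CTRL FASTED) for Slc2a2. With the slide as a block, Pfkfb1 fasting was 0.0092 (LWT CTRL). Without array weights, genotype values in CTRL FED were 0.034 (Pfkl) and 0.015 (Slc2a2). The HFD value of Slc2a2 in LKO FED mice was 0.016 without LKO HFD FED replicate 3 or without both arrays, and ranged from -0.052 to 0.016 when arrays were left out. With the median of the probes, Pfkl was 0.0026 for fasting (LWT CTRL) and 0.14 (CTRL FED) and 0.17 (HFD FASTED) for genotype.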
